A study of Sus scrofa with 4 samples.

Results

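The secretory granule genes of endocrine cells were taken as 7 of the 30282 genes of the count matrices: CHGA, CHGB, SCG2, SCG5, SCGN, PCSK1 and NMU. The members were chosen by symbol, and all UMIs (molecules counted once by their barcode) of the 14 features that carry these symbols were summed per gene. Each symbol has 1 gene body feature and 1 extension feature that reaches past the annotated end of the gene.

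Endocrine cells store hormones in dense-core granules and release them when calcium rises. Granins such as CHGA, CHGB and SCG2 are acidic proteins that aggregate in the granule and are cut into peptides, and SCG5 is the chaperone of the prohormone convertase PCSK2. PCSK1 is the convertase that starts the processing of proinsulin, SCGN is a cytosolic calcium-binding protein of islet cells, and NMU is a neuropeptide whose receptors are NMUR1 and NMUR2.

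Single-cell RNA sequencing was measured in 2 libraries of porcine pancreatic ductal organoids (PPDO) and 2 libraries of primary porcine pancreas, with no drug of the study's screen added. Per the study's methods, PPDO were grown in Cultrex in a medium with WNT3a, R-spondin, Noggin, FGF10, EGF, gastrin and nicotinamide, from 2 pigs and at different passages. The medium also held small-molecule inhibitors of TGF-beta receptors and of ROCK, prostaglandin E2 and N-acetylcysteine. The study describes most cells at these passages as shifted to a less mature duct state. The study's results call the pigs late-postnatal and adult, while the ages in its sequencing methods put both in its late-postnatal range, and which pig gave which library is not in the labels. The primary pancreata came from late-postnatal German landrace pigs, a wild type and an INS-eGFP animal, in which the porcine insulin promoter drives eGFP. They were processed on different days: hand-picked ducts for the first, and for the second DBA+ cells, INS-eGFP cells and whole suspension that were sorted and pooled. The replicate numbers of the labels were read as the sample numbers of the methods. The labels give no genotype, and eGFP was counted in INS-rich cells of both primary libraries, so the files do not tie a genotype to a library. Each library is 1 animal or line, so p-values measure the spread between 2 libraries a group.

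In all, 366263520 UMIs were deposited for PPDO 1, 316018482 for PPDO 2, 87043513 for primary pancreas 1 and 138928395 for primary pancreas 2. After filters, 8885, 7337, 5671 and 4261 cells were kept. Between 4 and 18 barcodes of kept cells occurred in any pair of libraries. Levels are given as CPM, the member's UMIs per 1000000 UMIs of the summed cells with INS left out of the total, since INS took 49.8% and 55.8% of the UMIs of INS-rich cells. The libraries tag the 3′ end of each molecule, so CPM was not divided by gene length when members were compared. Ranges in brackets after a level are 95% Poisson intervals, and those after a share are Clopper-Pearson intervals. Both cover counting error only.

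On Sscrofa11.1, with RefSeq coordinates, all 7 members are protein-coding. CHGA lies on chromosome 7 from 114345542 to 114357799 and SCGN on the same chromosome from 20389156 to 20432985. CHGB lies on chromosome 17 (14747282 to 14761995), SCG2 on chromosome 15 (125420773 to 125426303) and SCG5 on chromosome 1 (136525920 to 136590021). PCSK1 lies on chromosome 2 (103004794 to 103050707) and NMU on chromosome 8 (54952333 to 54978577).

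The primary cells were clustered without the 7 members, and clusters were named from marker lists. The INS-rich cells numbered 46 in primary pancreas 1 and 1777 in primary pancreas 2, which is 0.811% and 41.7% of the kept cells, and the sort of the second pancreas can set that share. Of 8 beta cell markers besides INS, 5 reached 10 CPM in both libraries, among them the zinc transporter SLC30A8 at 760 and 752 CPM and the transcription factors PDX1 at 155 and 192 CPM and NKX6-1 at 138 and 196 CPM. IAPP, a hormone stored with insulin, was at 0 and 0.283 CPM, and DLK1 and ADCYAP1 were at or near 0. All 8 pan-endocrine markers reached 10 CPM in both libraries. Of 8 immune markers only CD74 did, at 1225 and 1491 CPM, and of 10 acinar markers 7 and 6 did, with summed levels of 388 and 267 CPM. Of 10 ductal markers 6 did in both, with sums of 1110 and 1243 CPM led by EPCAM, and the 7 Schwann cell markers summed to 814 and 1193 CPM, mostly from ERBB3. GCG was at 15.7 and 998 CPM. Their part in the members' levels was not tested.

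In INS-rich cells the members spanned a wide range of levels, and CHGA stood far above the others. CHGA was at 9183 CPM in primary pancreas 1 and 14502 CPM in primary pancreas 2, a mean of 11842 ± 3761 (SD, n = 2). SCG2 followed at 2175 and 2818 CPM and SCG5 at 1666 and 2225 CPM. SCG2 was above SCG5 within each library, although the ranges of the pair over both libraries overlapped. SCGN was at 570 and 814 CPM, PCSK1 at 504 and 423 CPM and CHGB at 298 and 353 CPM. The ranges of these 3 did not overlap. NMU was the lowest at 51.8 (35.7 to 72.8) and 218 (213 to 223) CPM, a mean of 135 ± 117 (SD, n = 2). CHGB, a granin like CHGA, was thus the member next above NMU.

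**Figure D1:**
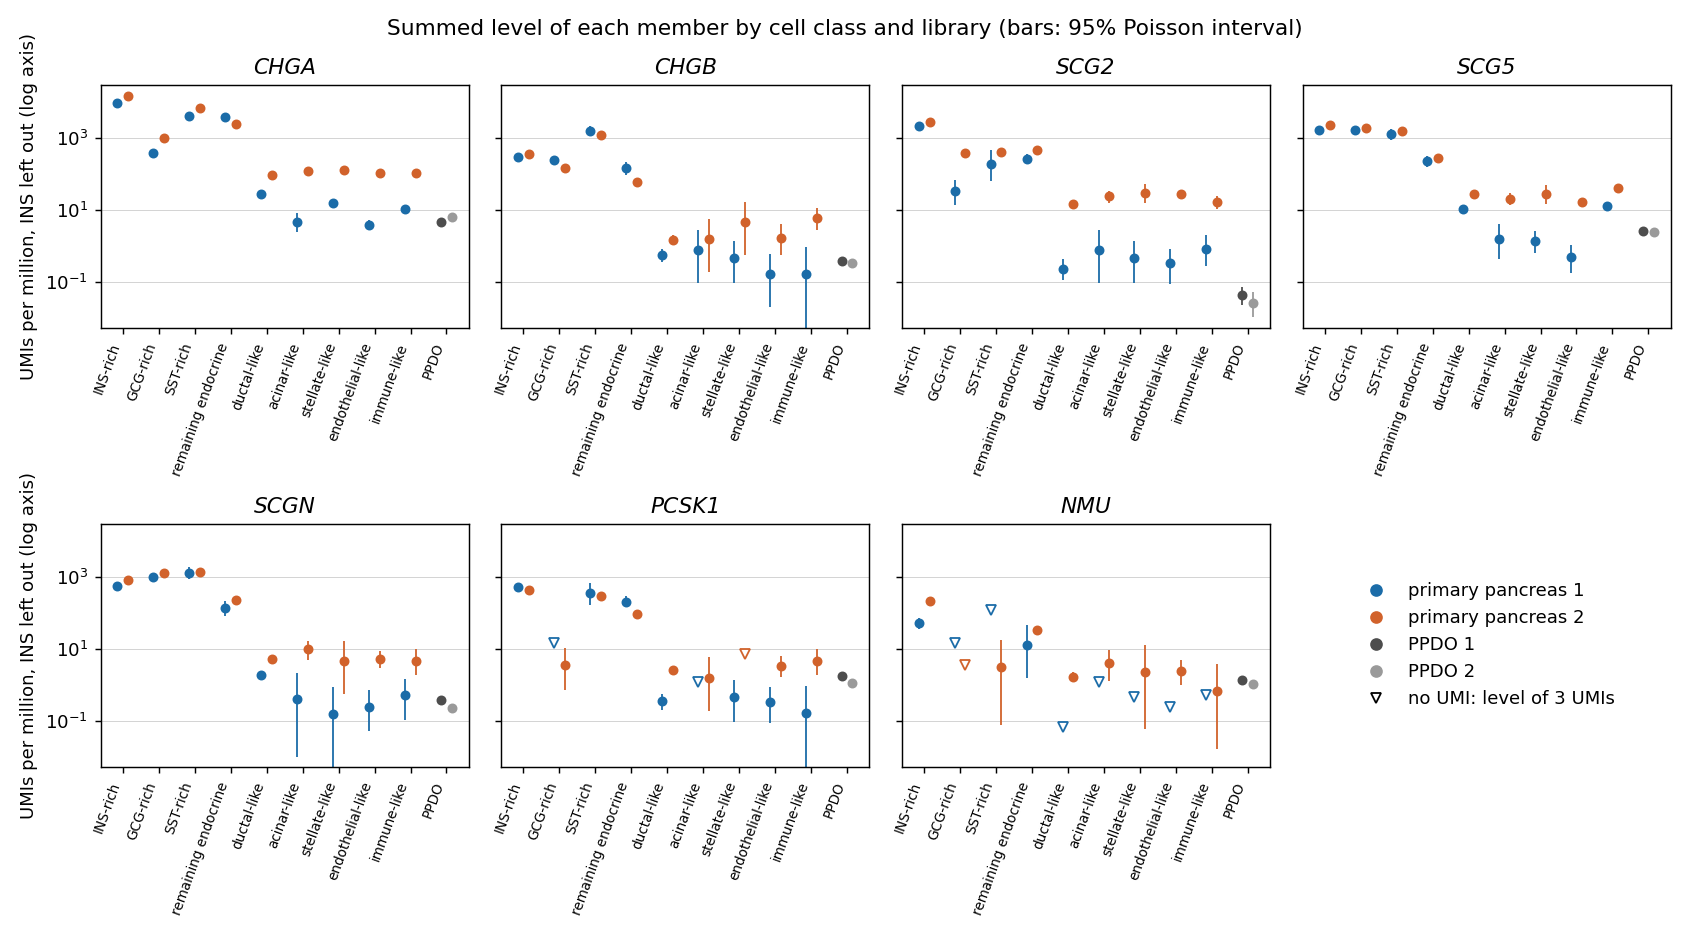
Each panel plots 1 member as UMIs per 1000000 with INS left out (log axis) for cell classes of the 2 primary libraries and for the 2 PPDO libraries, with 95% Poisson intervals as bars. The 7 members were at 51.8 to 14502 CPM in INS-rich cells and at 0.0267 to 6.31 CPM in PPDO, and an open triangle marks the level of 3 UMIs where no UMI was counted.

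At 1000 UMIs per cell, the share of INS-rich cells with a UMI followed the order of the levels in primary pancreas 2. In primary pancreas 1 PCSK1 was then found in more cells than SCGN at a lower level. At 3000 UMIs per cell this was reversed there, with no SCGN UMI in 26.7% and no PCSK1 UMI in 33.3% of 45 cells. Without thinning PCSK1 was found in 42 and SCGN in 40 of its 46 cells. At 1000 UMIs other than INS per cell, CHGA was found in 100% of 45 INS-rich cells in the first primary library, where 1 cell was too shallow, and in 99.8% of 1777 in the second. SCG2 was found in 80% and 90.5%, SCG5 in 68.9% and 80.0% (1421 of 1777 cells), and SCGN in 33.3% and 50.1%. PCSK1 was found in 48.9% and 31.5%, CHGB in 28.9% and 23.5%, and NMU in 6.67% and 13.4%. A median of 4 of the 7 members was found per cell in each library. Without thinning, CHGA was found in all 46 and 1777 cells, and NMU in 10 of 46 cells and 804 of 1777 cells. In immune-like cells, a class without hormone granules, the thinned shares were 0.850% and 12.3% for CHGA, 1.70% and 7.25% for SCG5 and 0 for NMU in both libraries, and their median depths without INS were 6694 and 9045 UMIs against 12665 and 18898 in INS-rich cells.

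NMU was spread unevenly over the INS-rich cells of primary pancreas 2. Of 1777 cells, 804 had an NMU UMI, 227 had at least 10 UMIs and 1 had 141 UMIs. Over the 1763 of these cells with at least 3000 UMIs besides INS, the median cell was at 0 CPM, the upper quartile at 163 CPM and the highest cell at 5735 CPM. At 3000 UMIs per cell the variance of NMU was 4.37 times its mean, against 1.32 times for PCSK1, 1.56 times for SCGN and 2.35 times for SCG2. CHGA at 5.23 times and SCG5 at 3.34 times were also spread beyond counting noise, and CHGB was at 2.99 times with a highest cell of 9098 CPM against a median of 204 CPM. Over the 45 cells of primary pancreas 1, NMU was at 1.95 times its mean, PCSK1 at 2.15, SCGN at 2.12 and SCG2 at 2.79. At a given relative spread this ratio rises with the mean. The mean ran from 0.612 UMIs for NMU to 44.8 for CHGA in primary pancreas 2, and was 0.2 for NMU in primary pancreas 1. The ratio therefore does not rank the members by unevenness, within a library or between the 2. Across the 1763 cells of primary pancreas 2, which share a library and a depth, the members were weakly to moderately related: Spearman's rho was highest at 0.40 for SCG2 with SCG5 and lowest at 0.04 for CHGA with SCGN.

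INS-rich cells fell into 2 clusters, numbered 2 (36 and 1018 cells) and 3 (10 and 759 cells), which took 50.1% and 62.7% of their UMIs from INS. All 7 members were higher in cluster 3 than in cluster 2 in both libraries, as were 13.6% of the 26517 genes with a UMI in INS-rich cells and 28.5% of the 3631 genes of at least 50 CPM in both. As a ratio, the gap in primary pancreas 2 was widest for SCG5, at 3040 against 1722 CPM. In primary pancreas 1, with 10 cells in cluster 3, it was wider for CHGB (652 against 230 CPM) and SCGN (1128 against 463 CPM) than for SCG5 (3045 against 1401 CPM). NMU was at 68.1 against 48.7 CPM, with intervals that overlapped, and at 295 against 170 CPM. PCSK1 was at 623 against 481 CPM and 513 against 367 CPM. INS is left out of these totals but not out of the clustering, so this is a description.

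Other endocrine cells carried the granins at different ratios. GCG-rich cells, which numbered 12 and 31, had SCG5 at 1703 and 1839 CPM and SCGN at 980 and 1303 CPM, in the range of INS-rich cells or above. Their CHGA was at 372 and 1020 CPM, their SCG2 at 33.8 and 374 CPM and their CHGB at 246 and 144 CPM. In primary pancreas 1, 1 cell held 5 of the 7 SCG2 UMIs and 1 held 26 of the 51 CHGB UMIs, and without its top cell SCG2 was at 10.2 CPM and CHGB at 129 CPM. PCSK1 had no UMI in the 12 cells and 3 UMIs in the 31 cells (3.53 CPM). NMU had no UMI in either library, which allows up to 14.5 and 3.53 CPM. GCG-rich cells thus had the PCSK2 chaperone SCG5 and PCSK2 itself, at 1998 and 3432 CPM, with PCSK1 at or under the level of 3 UMIs.

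SST-rich cells numbered 1 in primary pancreas 1, with no PPY UMI, and 13 in primary pancreas 2, with PPY at 36016 CPM. CHGB was at 1565 and 1205 CPM in them, above the INS-rich range of 298 to 353 CPM. SCGN was at 1291 and 1392 CPM, CHGA at 3991 and 6710 CPM, SCG5 at 1252 and 1551 CPM, PCSK1 at 352 and 299 CPM and SCG2 at 196 and 411 CPM. NMU had 0 and 1 UMI, so among INS-rich, GCG-rich and SST-rich cells it was above 3 UMIs only in INS-rich cells. The 1 SST-rich cell of primary pancreas 1 allows up to 117 CPM, above the INS-rich level of 51.8 CPM there, so that library cannot show a difference. The 5 islet hormones took 24.9% and 19.8% of UMIs in GCG-rich cells and 40.3% and 22.0% in SST-rich cells. With INS, GCG, SST, PPY and GHRL all left out of the total, a scale chosen after seeing the data, CHGB was at 2623 and 1531 CPM in SST-rich cells and CHGA at 495 and 1265 CPM in GCG-rich cells.

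A further 41 and 381 endocrine cells fell in none of these classes. GCG, SST, PPY and GHRL were each under 10000 CPM in all 5 of their subclusters, and INS took 4.28% and 6.51% of their UMIs, from 0.900% to 17.3% by subcluster. CHGA was at 3744 and 2438 CPM in them, SCG2 at 263 and 452 CPM, SCG5 at 224 and 286 CPM and NMU at 12.8 and 33.8 CPM. All 7 members were lower than in INS-rich cells in both libraries. The share of all genes that were so was not counted, so this is no result particular to the members. A cluster of 364 cells of primary pancreas 2 that stayed without a name had INS at 17.6% of UMIs, a median of only 4040 UMIs, CHGA at 1809 CPM and SCG5 at 324 CPM.

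Ductal-like cells, the primary counterpart of PPDO, numbered 2083 and 1188. CHGA was at 27.9 and 91.6 CPM in them, SCG5 at 11.05 and 27.3 CPM, SCGN at 1.85 and 5.29 CPM, SCG2 at 0.234 and 15.2 CPM, CHGB at 0.562 and 1.51 CPM and PCSK1 at 0.351 and 2.54 CPM. NMU had no UMI in primary pancreas 1, which allows up to 0.0702 CPM, and was at 1.67 CPM in primary pancreas 2. All 7 were higher in primary pancreas 2. The share of all genes that were so was not counted, so this is no result particular to the members. The cause of the gap between the libraries was not tested. Most ductal-like cells of primary pancreas 1 lay in clusters 0, 7 and 8 (1274, 456 and 352 cells) and most of those of primary pancreas 2 in clusters 1 and 25 (1107 and 64 cells).

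RNA free in the suspension can enter droplets in the ratios of its source, so each member was set against INS in the classes without endocrine identity. Empty droplets were not examined, and the source of the members' UMIs in these classes was not tested. INS made up 0.00978% and 0.775% of UMIs in ductal-like cells and 0.0180% and 1.19% in immune-like cells. In primary pancreas 2, the members per 1000 INS UMIs were close to the INS-rich ratio. Over 7 members and 5 classes, 27 of 35 Poisson intervals held that ratio, 6 lay below it and 2 above. NMU in ductal-like cells was at 0.214 per 1000 INS UMIs (0.154 to 0.289) and at 0.172 in INS-rich cells. The 2 above were both SCG5, at 3.50 in ductal-like cells (3.24 to 3.77) and 3.38 in immune-like cells (2.58 to 4.34) against 1.76 in INS-rich cells. In primary pancreas 1, with 46 INS-rich cells, 18 of 35 intervals held the ratio and 17 lay above it. Intervals from few UMIs are wide and can hold the ratio for that reason. NMU had no UMI in these classes of primary pancreas 1, and SCG2 had at most 10 UMIs in each. In primary pancreas 2, NMU had 1 UMI in immune-like cells and 1 in stellate-like cells. CHGA in ductal-like cells of primary pancreas 1 was at 285 per 1000 INS UMIs against 9.26 in INS-rich cells, and SCG5 at 113 against 1.68. These ratios count UMIs on the extension features, which held much of CHGA in ductal-like and stellate-like cells of that library but little in INS-rich cells. The CHGA ratios there are thus not those of the gene body alone. SCGN in ductal-like cells was at 18.9 per 1000 INS UMIs (14.97 to 23.6) against 0.575, while SCG2 was at 2.39 (1.15 to 4.40) against 2.19. SCG5 was the only member above the INS-rich ratio in both libraries, and was so in ductal-like and immune-like cells.

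**Figure D2:**
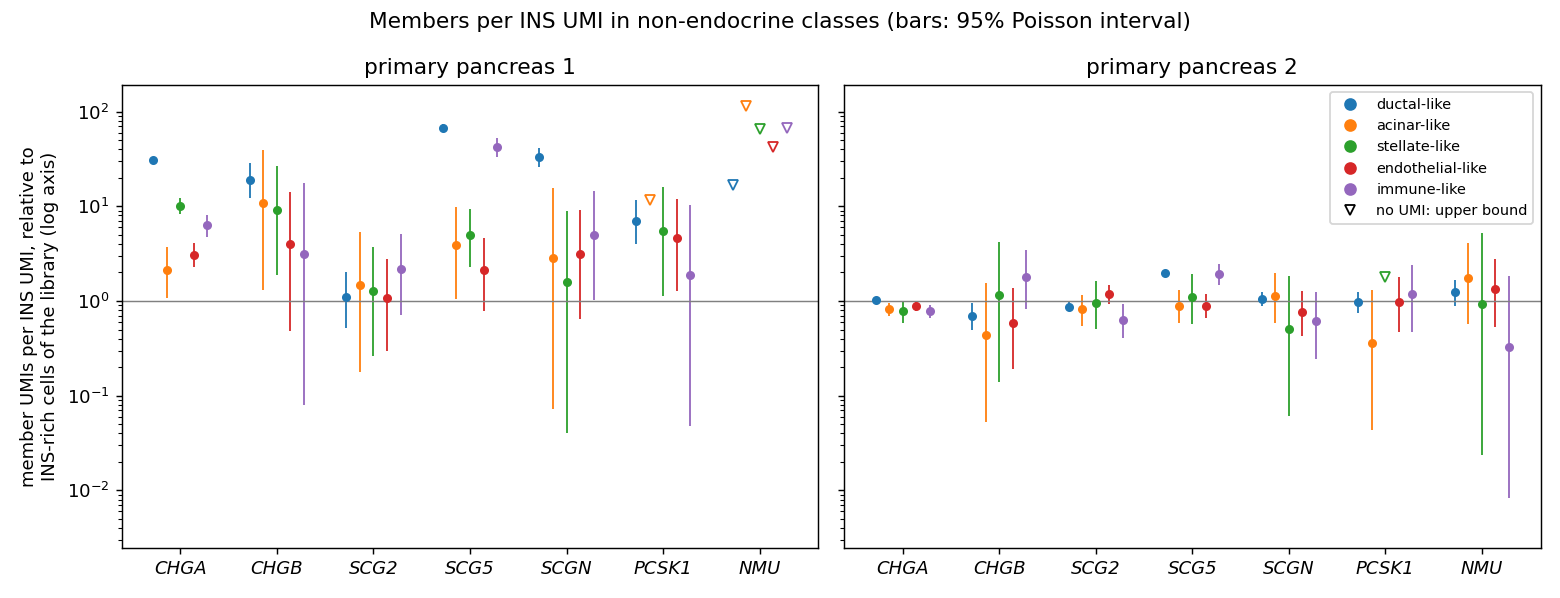
The 2 panels plot each member's UMIs per INS UMI in 5 non-endocrine classes, divided by that ratio in the INS-rich cells of the same library (log axis), with 95% Poisson intervals as bars. In primary pancreas 2 most points lie at 1 and SCG5 in ductal-like and immune-like cells lies above it, and in primary pancreas 1 the same 2 SCG5 points lie furthest above among the points with UMIs. UMIs on extension features are counted.

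SCG5 in immune-like cells came from 1 of 3 immune clusters. In the cluster led by GNLY, KLRK1, CCL5 and GZMH, which are genes of cytotoxic lymphocytes, SCG5 was at 40.2 CPM (31.3 to 50.7) and 100 CPM (74.7 to 132), in 55 of 252 cells and 30 of 73 cells. In the other immune clusters it was at 0.643 and 1.59 CPM in primary pancreas 1 and at 10.8 and 4.54 CPM in primary pancreas 2. No cell of that cluster held more than 5 SCG5 UMIs, and NMU had 0 and 1 UMI in it. In Schwann-like cells of primary pancreas 1, SCG2 stood at 13.04 CPM in 1 cluster, where 1 of 192 cells held 21 of 24 UMIs, and at 1.65 CPM without that cell.

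In PPDO, and in ductal-like and stellate-like cells of primary pancreas 1, much of CHGA was counted past the end of the gene, and less of it in primary pancreas 2. The extension feature held 0.0513% and 0.0279% of CHGA UMIs in INS-rich cells, 41.6% and 10.5% in ductal-like cells, 84.3% and 7.27% in stellate-like cells, and 96.4% and 98.5% in PPDO 1 and 2. On the gene body alone CHGA was at 0.174 and 0.0978 CPM in PPDO, at 17.2 and 85.5 CPM in ductal-like cells and at 9622 and 15119 CPM in INS-rich cells. The annotation places a long noncoding RNA, LOC106507757, on chromosome 7 from 114358711 to 114363592, with a gap of 911 bases to the end of CHGA at the higher coordinate. The table used gives no strand, and the part of that RNA in these UMIs was not tested. Extension features held 2.53% to 5.41% of all UMIs in the 4 libraries, and 10.9% to 14.3% of genes had at least 90% of their UMIs there. PCSK1 in PPDO had 21.9% and 18.5% of its UMIs on the extension feature, SCG2 6 of 13 and 5 of 7 UMIs, and the other members at most 2.5%.

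**Figure D3:**
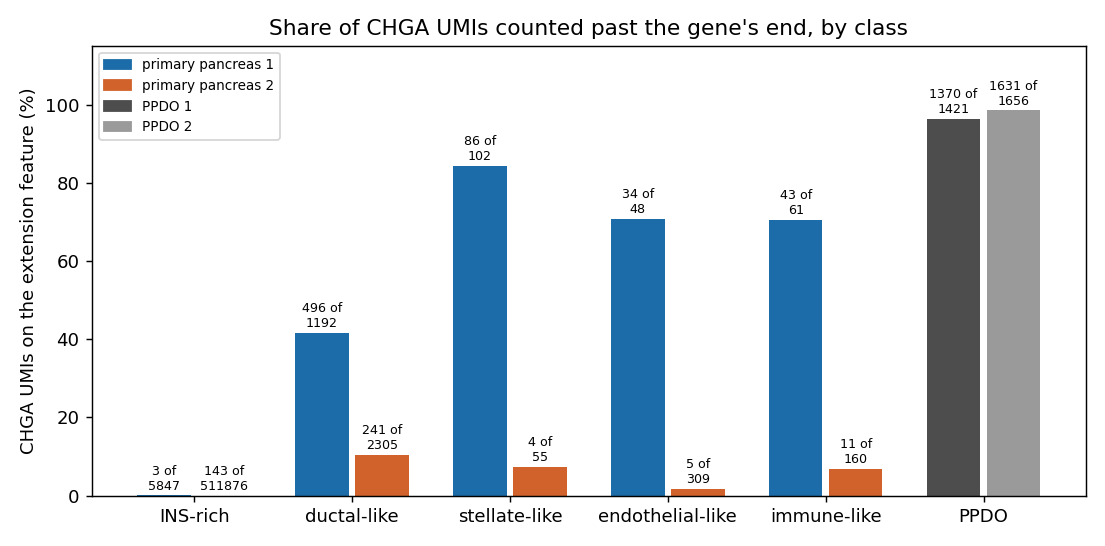
Bars give the percentage of CHGA UMIs that fell on the extension feature in 5 primary classes and in PPDO, by library, with the UMIs behind each share printed above the bar. PPDO 1 and 2 are at 96.4% and 98.5% and INS-rich cells at 0.0513% and 0.0279%.

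In PPDO all 7 members were at low levels. CHGA was at 4.72 and 6.31 CPM, of which nearly all was on the extension feature. SCG5 was at 2.67 and 2.50 CPM (804 and 655 UMIs), PCSK1 at 1.75 and 1.15 CPM, and NMU at 1.35 and 1.06 CPM (405 and 277 UMIs). CHGB was at 0.399 and 0.343 CPM, SCGN at 0.372 and 0.232 CPM, and SCG2 at 0.0432 and 0.0267 CPM, with 13 and 7 UMIs among 8885 and 7337 cells. In each library PCSK1 was above NMU and CHGB above SCGN, although the ranges of both pairs overlapped between libraries. At 3000 UMIs per cell, SCG5 was found in 0.861% and 0.696% of PPDO cells, PCSK1 in 0.555% and 0.396%, and NMU in 0.261% and 0.300%. In immune-like primary cells at the same depth SCG5 was found in 4.29% and 13.8%, PCSK1 in 0.159% and 2.17%, and NMU in 0 of 629 and 0 of 138 cells, with upper bounds of 0.585% and 2.64% that lie above the PPDO shares. Those cells can hold free RNA of the primary suspensions, which was not tested, and their SCG5 came mostly from a single immune cluster. Their shares are therefore no measure of background in PPDO. In ductal-like cells NMU was found in 0% and 0.505%. Without thinning, NMU was found in 3.80% and 3.39% of PPDO cells, at median depths of 34176 and 34459 UMIs. INS itself made up 1.89e-05% and 1.75e-05% of PPDO UMIs.

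Among the 10 PPDO clusters, also formed without the members, the same cluster was highest for SCG5 in both libraries, and another was highest for NMU in both. The order of the other clusters was not the same in both: SCG5 in cluster 3 was below the largest cluster in PPDO 1 (1.59 against 3.21 CPM) and above it in PPDO 2 (3.53 against 2.62 CPM), where 1 cell held 9 of 12 UMIs. SCG5 was highest in the cluster led by SPP1, TCN1 and WFDC2 (323 and 194 cells), at 9.32 CPM (7.63 to 11.3) and 13.98 CPM (11.2 to 17.2), and next in a cluster with CCL2 and ICAM1 among its leading genes (119 and 62 cells), at 7.88 and 11.07 CPM. The intervals of these 2 clusters overlapped. SCG5 was at 0.199 and 0.613 CPM in a cluster led by PLXDC2 and PLA2G4E. Its leading genes also held SPINK5, KLK7 and DSG1, which are genes of keratinizing epithelium. NMU was highest in other cells: it was at 4.65 CPM (3.62 to 5.87) and 4.18 CPM (3.29 to 5.24) in the SPINK5 and KLK7 cluster (382 and 438 cells) and at 1.05 and 1.43 CPM in the SPP1 and WFDC2 cluster. NMU was at 2.77 and 1.67 CPM in the cluster led by MMP3 and GPNMB, and at 0.491 and 0.450 CPM in the largest cluster. Another cluster (38 and 94 cells) also had keratinizing genes, with S100A8, SPRP and KRT1 among its leading genes. NMU had no UMI in its cells of PPDO 1, which allows up to 5.96 CPM, and was at 1.84 CPM (3 UMIs) in PPDO 2.

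SCGN was at 5.63 and 6.83 CPM in the SPP1 and WFDC2 cluster, which held 64 of the 112 SCGN UMIs of PPDO 1 and 43 of the 61 of PPDO 2. In PPDO 2, 36 of these UMIs came from 1 cell, and without it SCGN was at 1.12 CPM. In PPDO 1 the top cell held 11 UMIs, and without it SCGN was at 4.67 CPM.

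**Figure D4:**
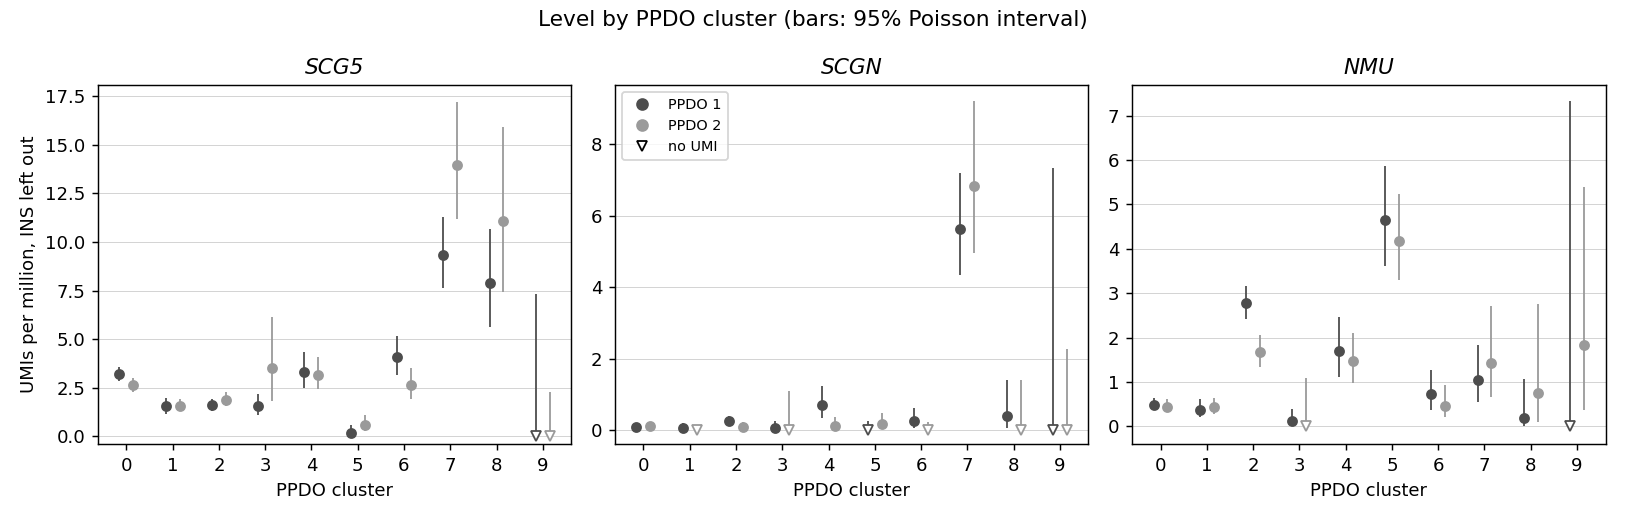
The 3 panels plot SCG5, SCGN and NMU as UMIs per 1000000 with INS left out for the 10 PPDO clusters and both libraries, with 95% Poisson intervals as bars. SCG5 and SCGN are highest in cluster 7 (SPP1 and WFDC2) and NMU in cluster 5 (SPINK5 and KLK7), at 4.65 and 4.18 CPM.

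PPDO were then compared with primary ductal-like cells, the comparison of the study between organoid and tissue ducts. Sums per library were fitted with edgeR's quasi-likelihood test over all genes, with Benjamini-Hochberg adjustment and a threshold of 0.05. Of 23511 genes tested 44% were called, 23% higher and 21% lower in PPDO. Of the 7 members 4 were called lower, 0 higher and 3 were not called, and their median log2 fold change was -2.38 against 0.01 over all genes tested. For all members but PCSK1 and NMU the 2 PPDO values lay below both ductal-like values, as they did for 50% of all genes tested. The smallest p of an exact two-sided permutation test of 2 against 2 libraries is 0.333, and those 5 members had that value.

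SCG5 fell from 11.05 and 27.3 CPM in ductal-like cells to 2.67 and 2.50 CPM in PPDO, a log2 fold change of -2.38 (SE 0.40, adjusted p = 0.00981). CHGA had a log2 fold change of -2.91 (SE 0.54, adjusted p = 0.0138) and SCGN of -3.04 (SE 0.56, adjusted p = 0.0133). On the gene body alone CHGA had a log2 fold change of -7.99. SCG2 had a log2 fold change of -7.16 (SE 2.01, adjusted p = 0.0426), with ductal-like values of 0.234 and 15.2 CPM that stand far apart. CHGB at -0.95 (SE 0.48, adjusted p = 0.173), PCSK1 at 0.58 (SE 0.83, adjusted p = 0.606) and NMU at 1.17 (SE 1.44, adjusted p = 0.543) were not called.

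These calls changed with the libraries kept and with the subtraction of free RNA. Without PPDO 1 or without PPDO 2, edgeR called 0 of 7 members, with 3 at an unadjusted p under 0.05 each time, while 5157 of 21412 and 4700 of 21482 genes were called. The log2 fold changes in these fits were -2.40 and -2.37 for SCG5 (adjusted p = 0.0577 and 0.0620), -2.69 and -3.18 for CHGA and -3.38 and -2.78 for SCGN. Without primary pancreas 1, 5 members were called lower, CHGB added, among 10300 of 24622 genes called, with SCG2 at -8.18, SCGN at -3.58, CHGA at -3.50 and SCG5 at -2.86. Without primary pancreas 2, the library rich in INS-rich cells, 4 were called lower and PCSK1 and NMU higher, among 10666 of 24651 genes called. The falls were then smaller, at -2.41 for SCG2, -2.31 for SCGN, -2.03 for CHGA and -1.79 for SCG5. NMU was then at a mean of 1.20 CPM in PPDO against no UMI in the ductal-like cells of primary pancreas 1, at least 17.1-fold higher with the floor at 3 UMIs. When free RNA was subtracted at the INS share of immune-like cells, 2.11% and 3.11% of the ductal-like UMIs, edgeR called 0 members lower, among 10067 of 23348 genes called, and SCG5 was at -1.26 (adjusted p = 0.0860), CHGA at -0.94 and SCGN at -1.23. The profile subtracted was the sum of all kept cells of the library, not of empty droplets. In primary pancreas 2 INS made up 1.19% of UMIs in immune-like cells and 0.775% in ductal-like cells. More was thus subtracted there than the INS of ductal-like cells allows. That left 0 CPM of 6 members and 5.48 CPM of SCG5 in these cells. The lost lower calls and the fold changes of the 6 are therefore no measure of a difference. PCSK1, with 0.247 CPM left in primary pancreas 1, and NMU, with no UMI there before the subtraction, were called higher against such levels, so those 2 calls are no measure of a difference. When it was subtracted at the INS share of the ductal-like cells themselves (1.14% and 2.02%, chosen after seeing the data), SCG5 was called lower at -1.77 (SE 0.20, adjusted p = 0.00346), with 10.9 and 13.2 CPM left in ductal-like cells, among 10234 of 23403 genes called. CHGB, SCG2, SCGN and PCSK1 were left at 0 in primary pancreas 2, and CHGA at 0.550 CPM. The call of PCSK1 as higher and the lost lower calls of CHGA, SCG2 and SCGN are thus no measure of a difference either. CHGA at -1.01 (adjusted p = 0.620) was not called, nor was NMU at 3.63 (adjusted p = 0.0549), which was at 0 in primary pancreas 1, and SCGN was at -1.28.

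**Figure D5:**
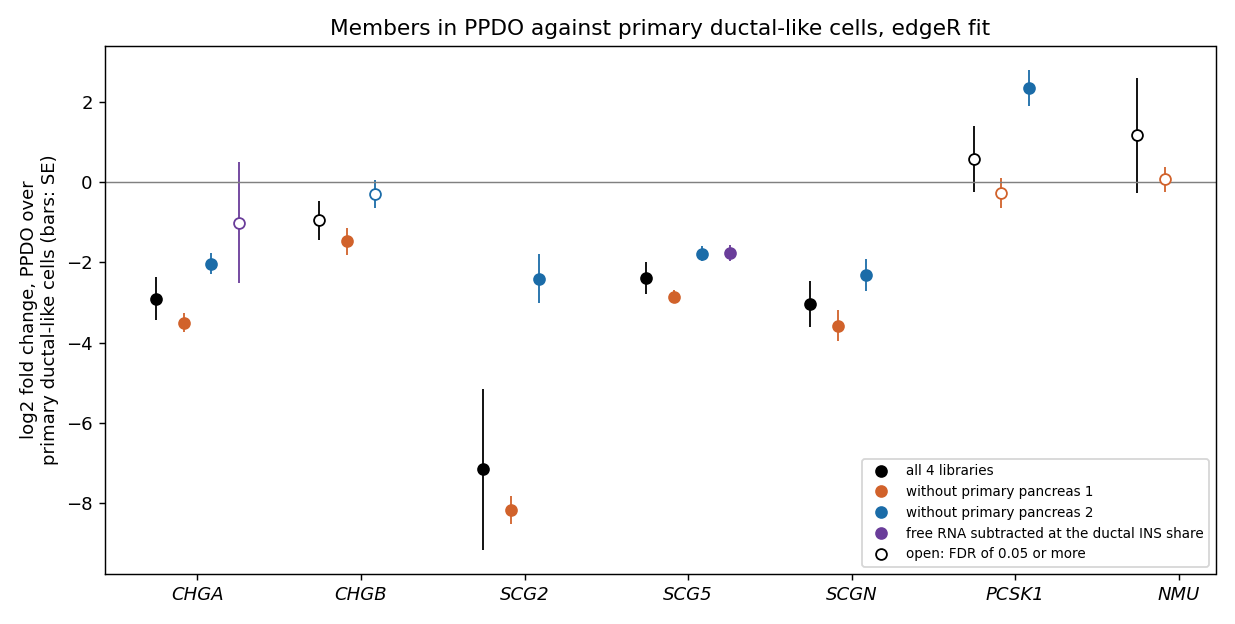
Points give the edgeR log2 fold change of PPDO over primary ductal-like cells for the 7 members, with SE as bars, with all libraries, without either primary library, and with free RNA subtracted at the ductal INS share, and open points have an adjusted p of 0.05 or more. SCG5 is filled and below 0 in these 4 settings but was not called without either PPDO library or with the immune-share subtraction, and NMU without primary pancreas 2 and, under the subtraction, members at 0 in a ductal-like library are not drawn.

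Against all primary cells, a comparison that needs no clustering, the PPDO values of 6 members lay below both primary values, as did those of 57.4% of all genes tested, and only SCG2 was called. NMU, at 1.35 and 1.06 CPM in PPDO, lay between its levels of 0.478 and 109 CPM over all primary cells. CHGA was at 109 and 7273 CPM over all primary cells, and SCG2 at 19.8 and 1411 CPM. Of 24753 genes tested 26.3% were called, 12.1% higher and 14.2% lower in PPDO. Of the 7 members only SCG2 was called, at a log2 fold change of -13.55 (SE 2.89, adjusted p = 0.0418), and 0 were higher. The other 6 lay between -8.77 (SCGN) and -4.76 (NMU), with adjusted p from 0.0567 to 0.194. In these sums, more endocrine cells and more RNA per endocrine cell cannot be told apart. Without primary pancreas 1 all 7 were called lower, among 12999 of 25677 genes called. Without primary pancreas 2, 6 were called lower and NMU higher at 1.87 (adjusted p = 0.0223), among 12375 of 25535 genes called. Without PPDO 1 or without PPDO 2, edgeR called 0 members and 0 genes, with 1 member each time and 5047 or 4761 genes at an unadjusted p under 0.05. DESeq2 called all 7 lower, among 10197 of 29005 genes called.

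Other genes of regulated secretion, from a list of 26 of which 25 were matched, were set beside the members. In INS-rich cells 15 of 25 were above 100 CPM in both libraries and 22 of 25 were above their ductal-like level in both, against 6.48% and 30% of the 27974 genes with a UMI in either class. By the mean of both libraries the highest were the convertase PCSK2 at 4682 and 5430 CPM, the carboxypeptidase CPE at 1930 and 2325 CPM, the active zone protein RIMS2 at 1946 and 1837 CPM and the convertase inhibitor PCSK1N at 644 and 1094 CPM. In primary pancreas 1 SLC30A8, at 760 CPM, was above PCSK1N. The NMU receptor NMUR1 was at 3.14 and 3.06 CPM in INS-rich cells and at 10.5 and 2.04 CPM in immune-like cells, and NMUR2 was at 0 and 0.878 CPM in INS-rich cells. PCSK2, SCG3 and CPE were among the genes used to name the endocrine clusters.

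In PPDO against ductal-like cells 24 genes of the list were tested, of which 4 were called higher, 8 lower and 12 not, beside 23% higher and 21% lower over all genes. The list's median log2 fold change was -0.62 against 0.01. PCSK2 was lower at -5.66 (adjusted p = 0.0382), the vesicle calcium sensor family member SYT13 at -4.21 (adjusted p = 0.0184), PCSK1N at -3.73 (adjusted p = 0.000789) and RAB27A, a GTPase of granule docking, at -3.15 (adjusted p = 0.00268). IAPP was also lower, at -2.80, but its levels were at most 0.278 CPM in both groups. PCLO, a scaffold of the active zone, was higher at 4.33 (adjusted p = 0.00158), at 111 and 110 CPM in PPDO against 4.78 and 10.8 CPM in ductal-like cells and 565 and 568 CPM in INS-rich cells. The counts were 1 higher and 4 lower without either PPDO library, where 5157 of 21412 and 4700 of 21482 genes were called. With free RNA subtracted they were 7 higher and 5 lower of 21 at the immune INS share and 8 higher and 6 lower of 22 at the ductal INS share, with 10067 of 23348 and 10234 of 23403 genes called, and the median turned to 0.77 and 0.09. Whether the subtraction took genes of the list to 0 in ductal-like cells was not examined, so these counts and medians may not measure a difference. At the ductal INS share PCSK2 was no longer called (-0.48, adjusted p = 0.772). RAB27A, at 238 and 162 CPM in ductal-like cells, was above its INS-rich level of 73.8 and 74.2 CPM. Against all primary cells 0 of 25 were higher and 10 lower, beside 12.1% and 14.2% of all genes, with a median of -3.72 against -0.13 over all genes.

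Genes with a pattern like the members were sought over 15 class sums of at least 50 cells, which share libraries and include the PPDO sums, among 12128 genes by Pearson's r of log2(CPM + 1). CHGA and SCG2 were the nearest to each other (r = 0.977), and CHGA was followed by GALNTL6 and GAD2. SCG2 was followed by PCSK2 and SLC30A8. SCGN was nearest to SYT13 (r = 0.991) and NKX2-2, and PCSK1 to MAPK8IP2 (r = 0.982), RAB3B and CPLX2. CHGB was nearest to ELAVL4 (r = 0.985), ANXA10 and CCDC60, SCG5 to UNC80 (r = 0.971), MLXIPL and CHGA, and NMU to GJD2 (r = 0.969), SLC35D3 and KCNA4. INS-rich cells of primary pancreas 1, with 46 cells, were not among the sums.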

How the data were processed

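Cells of 2 PPDO and 2 primary pancreas libraries were grouped by sample title. The authors deposited raw counts (UMIs per feature and cell barcode, with no correction for free RNA) made with Cell Ranger 7.1.0, per the file headers, and an in-house annotation that adds extension features; the deposited barcode and feature files are name lists of no numeric unit. Submitters' processing notes name the builds GRCh38 and Sscrofa11.1. RefSeq positions are those of Sscrofa11.1.

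Filters of the study's methods were applied: mitochondrial UMIs up to 3% (PPDO) or 8% (primary), up to 9000 features, at least 1000 (both PPDO libraries), 400 or 800 features (primary pancreas 1 or 2), and at least 3000 UMIs in primary pancreas 2. The methods give 1 PPDO line a lower feature floor, but not which library it is. That floor would keep 8945 cells of PPDO 1 or 7388 of PPDO 2. Scrublet scores removed 89 and 154 primary doublets, and none were removed from PPDO. Leiden clustering (scanpy 1.11.5, 2000 variable genes, 20 components, resolution 0.5) left out the 7 members. A cluster was named when at least 3 markers of a list were higher in it by 2-fold or more and found in at least 10% of its cells. It stayed unnamed where its median depth was under 1/3 of its library's and none of those markers was among its top 10 genes. Counts per library were summed and tested with edgeR 4.0.16 (quasi-likelihood, TMM), with DESeq2 1.42.0 as an alternative, limma 3.58.1 only as a dependency. On simulated data for PPDO against ductal-like cells edgeR recovered 77 of 100 genes changed by a log2 fold of 2 and 100 of 100 changed by 3, with 1 false call among 23739 genes. The simulation gave every gene the same dispersion, changed few genes and chose these above a floor of expected UMIs. Its rates therefore do not measure errors in the real comparison, where 44% of genes were called. Named genes were the 7 members, the 4 genes of the secretion list highest in INS-rich cells and at most 6 called ones by fold, and the 3 genes of most like pattern per member (at least 10 CPM in 1 sum), of which 1 is not reported here. Receptors NMUR1 and NMUR2, IAPP in the marker check and clusters in the text were named after their values were seen. The members and lists were chosen with earlier results of these data known. Human organoid data and the gene sequences were not analysed here.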

Additional observations from a re-analysis of the deposited data

Results flagged for a closer look

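The transgene eGFP, which no comparison used, was counted in INS-rich cells of both primary libraries, at 179 CPM in primary pancreas 1 and 252 CPM in primary pancreas 2, in 38 of 46 and 1572 of 1777 cells. It was at 0 and 1.36 CPM in immune-like cells, 0.562 and 1.51 CPM in ductal-like cells, and 0.0532 and 0 CPM in PPDO 1 and 2.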

How the results depend on the processing

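For PPDO against ductal-like cells, 4 of 7 members were called with DESeq2, without a low-count filter, with INS kept, with extension features left out and when the members entered the clustering, as in the main fit. Over all genes these settings called, in that order, 11269 of 28659, 10167 of 28659, 10349 of 23512, 9564 of 19603 and 10301 of 23538. Leaving out 1 library gave 0 to 6. With free RNA subtracted at the immune INS share 2 were called, both higher, and at the ductal INS share 2, 1 in each direction, with each higher call set against ductal-like levels that the subtraction took to 0 in primary pancreas 2. CHGB, also taken to 0 there, then turned to 0.83 and 0.71, which is no measure of a difference. PCSK1 turned to -0.27 without primary pancreas 1 and to 2.34 without primary pancreas 2. SCG2 gave no value with free RNA subtracted.

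Same-numbered libraries did not deviate together (correlation -0.0076 and -0.018). This cannot exclude a pairing, since other differences between the libraries can hide it. The ages in the study's methods differ between the organoid pigs and the primary pigs, so same-numbered libraries do not come from the same pig. With the number as a replicate block 3 members were called against ductal-like cells, SCG2 lost, among 8293 of 23511 genes called, and 0 against all primary cells, among 2309 of 24753, where 9261 genes were at an unadjusted p under 0.05.

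Against all primary cells, 1 member was called in the main fit (6504 of 24753 genes), 7 with DESeq2 (10197 of 29005) and 2 with extension features left out (6320 of 20851). NMU was at -5.72 without primary pancreas 1 and at 1.87 without primary pancreas 2. In each fit without 1 library, the lone library of a group was assumed to vary like the other group.

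The summed level of the 7 members in INS-rich cells was 17901 CPM, 8345 with INS kept in the total and 14449 to 21352 by library. Their summed level in PPDO was 11.5 CPM, 5.89 with extension features left out. The mean share of INS-rich cells with a member was 54.0% at 1000 UMIs, 86.2% without thinning and 39.2% at 500 UMIs.

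With 2 libraries a group, primary libraries that differ in how they were collected, and counts not corrected for free RNA, the lowest levels, such as SCG2 in PPDO, rest on few UMIs. Genotype, day and sort cannot be told apart from the library.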
